A study of Mus musculus with 3 samples.

Results

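The genes described are the 9 replication-independent histone variant genes H3f3a, H3f3b, H2afz, H2afv, H2afx, H2afy, H2afy2, H1f0 and H1fx, taken by symbol from the 55536 Ensembl genes of the gene tables. They have 32 annotated transcripts. RNA was measured in F121-9, an established hybrid mouse embryonic stem (ES) cell line with Cast and 129 parents. The 3 libraries are labelled biological replicates 1 to 3 of that line at passage 14, each made from 400 ng of RNA, and carry no treatment. They form 1 group of 1 cell line, so no comparison between groups exists. The labels do not say whether the replicates came from separate cultures, so every p-value here refers to library spread that could be technical.

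Most histone protein is made during DNA replication from clustered genes whose mRNAs end in a stem-loop and carry no poly(A) tail. Variant histones are made from single genes, mostly with introns and polyadenylated mRNAs, and can be placed into chromatin throughout the cell cycle. H3.3 is laid down at active genes and at repeats, H2A.Z marks promoters and enhancers, H2A.X is phosphorylated at DNA breaks, macroH2A carries a large extra domain linked to repressed chromatin, and H1.0 and H1.X are linker histones. Because variant and replication-coupled histones can replace each other in the nucleosome, the relative RNA levels of their genes are of interest in rapidly cycling ES cells.

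Reads are told apart between paralogs and copies only by the bases at which these differ, and their coding sequences are shown first for this reason. H3f3a and H3f3b encode the same H3.3 protein: all 136 residues were identical, while 95 of 411 coding bases differed. The first 90 coding bases, 5′ to 3′ from the GENCODE M21 transcripts, follow with the bases that differ between the genes in capitals.
H3f3a: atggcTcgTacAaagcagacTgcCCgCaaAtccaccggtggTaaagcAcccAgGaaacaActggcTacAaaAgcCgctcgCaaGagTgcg
H3f3b: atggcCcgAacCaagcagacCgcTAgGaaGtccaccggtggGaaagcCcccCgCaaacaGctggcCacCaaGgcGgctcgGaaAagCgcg
Within this stretch 20 bases differed, which separate the reads that cover them. The coding sequence is 411 of 2841 bases in H3f3a-205 and 411 of 1993 bases in H3f3b-201, and the bases outside it were not compared here.

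H2afz and H2afv encode the 2 forms of H2A.Z. Their coding sequences differed at 81 of 387 bases and their proteins at 3 of 128 residues. Gm8203 is annotated as a processed pseudogene, an intronless copy of an mRNA inserted in the genome, and matched the H2afz coding sequence at 387 of 387 bases. Capitals in the first 90 bases mark differences from H2afv (in H2afz) and from H2afz (in Gm8203 and H2afv).
H2afz: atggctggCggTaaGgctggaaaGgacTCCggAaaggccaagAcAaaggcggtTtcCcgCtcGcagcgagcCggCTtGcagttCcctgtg
Gm8203: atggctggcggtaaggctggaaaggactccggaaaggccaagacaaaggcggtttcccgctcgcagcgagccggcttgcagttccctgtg
H2afv: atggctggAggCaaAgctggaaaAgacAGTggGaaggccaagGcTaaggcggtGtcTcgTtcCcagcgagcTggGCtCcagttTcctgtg
The Gm8203 stretch has no capital: no base in it tells the copy from H2afz.

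The gene H2afy produces 2 forms of macroH2A1 through mutually exclusive exons, shown because they separate the forms. The exon of H2afy-201 (macroH2A1.2) has 100 bases at chr13:56089758-56089857 on mm10, minus strand, and that of H2afy-202 (macroH2A1.1, the form that binds ADP-ribose) has 91 bases at chr13:56088252-56088342. Capitals are bases that differ between the exons in a global alignment.
H2afy-201 exon: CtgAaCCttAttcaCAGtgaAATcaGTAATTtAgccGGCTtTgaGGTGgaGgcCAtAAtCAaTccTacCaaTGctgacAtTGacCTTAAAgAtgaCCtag
H2afy-202 exon: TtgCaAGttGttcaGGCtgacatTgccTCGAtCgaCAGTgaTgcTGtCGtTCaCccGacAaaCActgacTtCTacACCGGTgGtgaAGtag

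H2afx stands between both kinds of histone gene, since its mRNA is known to end either at a histone stem-loop or at a poly(A) site further on. The histone stem-loop was searched as the letters GG, NN, CTTTT, N, AG, NN and CC in a row, N being any base, in the annotated transcripts on both strands. Among the 9 members only H2afx held it in the sense direction, 47 bases after the stop codon and 822 bases before the annotated transcript end. The 30 bases around it lie at chr9:44335233-44335262 on mm10, plus strand, with the motif in capitals.
H2afx stem-loop: ccacaaaGGCCCTTTTAAGGGCCaccacct
Of 21842 protein-coding genes, 72 (0.33%) held the motif in the sense direction and 16 held its reverse complement. It was found in 44 of 67 genes with symbols starting Hist1h to Hist4h, mostly replication-dependent histone genes. The match describes the letters in this window and not the ends of the RNA in these cells.

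Gene levels are TPM (abundance scaled for transcript length and library) as mean ± SD of n = 3 libraries. They come from the deposited RSEM-style tables, made from alignments to the transcriptome, unless kallisto-style tables, made from the read files, are named. Replicates 1, 2 and 3 held 10610782, 9765384 and 10175403 estimated counts in the RSEM-style tables. In the kallisto-style tables they held 19156106, 17717726 and 18471552, so the 2 quantifications did not rest on equal numbers of assigned counts. Of the fixed ES cell markers, 6 of 6 were expressed, a gene counting as expressed where every library had a TPM of at least 1, their mean levels running from 106.0 (Esrrb) to 505 TPM (Nanog). Of 6 fibroblast markers, which would mark feeder cells, 0 did in the RSEM-style tables, where Col3a1 and Twist2 were listed at 0 and Thy1 was highest at 1.06 ± 0.54 TPM. In the kallisto-style tables Thy1 reached the threshold (1.66 ± 0.34 TPM). Of 6 differentiated-cell markers, 3 reached it at low levels, the highest being T at 4.86 ± 1.70 TPM. Replicate 1 stood apart from the other 2 libraries: 1656 of 13391 genes spread beyond counting noise over 3 libraries, and 27 of 13489 did without replicate 1. Without replicate 2 it was 1464 of 13583 genes, and without replicate 3 it was 1471 of 13549.

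All 9 variant genes were expressed, against 23.6% of all genes and 52.1% of protein-coding genes. Their levels ran from 1519 ± 54 TPM (H2afz) to 33.3 ± 2.4 TPM (H2afy2). Together they held 3608, 3835 and 3863 TPM in replicates 1, 2 and 3, a mean of 3769 ± 140 TPM. H2afz made up 40.3% of that mean sum and H3f3b 26.7%.

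**Figure D1:**
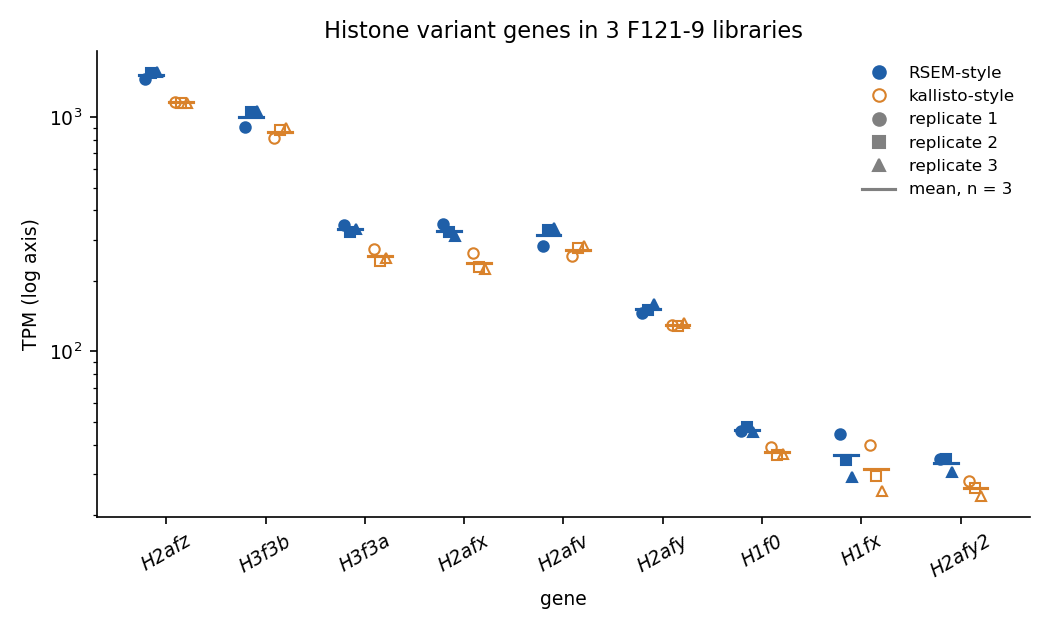
TPM on a log axis of each variant gene, with filled blue symbols for the RSEM-style and open orange symbols for the kallisto-style tables. Symbol shape gives the replicate and bars the mean of 3 libraries. H2afz (1519 TPM) and H3f3b (1006 TPM) lie above a group of 3 genes at 315 to 334 TPM, and H1f0, H1fx and H2afy2 lie at 33.3 to 46.1 TPM in the RSEM-style tables.

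H3f3b (ENSMUSG00000016559.14, chromosome 11, 116021912 to 116027962, minus strand, mm10) was the more abundant gene of H3.3. Its level was 903, 1053 and 1061 TPM in replicates 1, 2 and 3, a mean of 1006 ± 89 TPM and rank 124 among the 11478 expressed protein-coding genes. H3f3a (ENSMUSG00000060743.12, chromosome 1, 180800832 to 180813943, minus strand) had 346, 322 and 334 TPM, a mean of 334 ± 12 TPM and rank 408. The ranges of the 2 genes did not overlap, and H3f3b lay above H3f3a in 3 of 3 libraries. The log2 ratio of H3f3b to H3f3a was 1.38, 1.71 and 1.67 (mean 1.59 ± 0.18), a geometric mean of 3.00-fold. The exact two-sided sign-flip permutation test gave p = 0.25, the smallest that 3 libraries allow. In the kallisto-style tables the ratio was 1.76 ± 0.16, or 3.38-fold. In TPM, H3f3b was lowest in replicate 1 and H3f3a highest there. In TMM-normalised CPM, given below, H3f3a differed little between replicates and was lowest in replicate 1. In bulk RNA, a gene used by fewer cells and a gene with less RNA in each cell cannot be told apart.

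H2afz (ENSMUSG00000037894.13, chromosome 3, 137864487 to 137866922, plus strand), the main gene of H2A.Z, was the most abundant member at 1459, 1540 and 1559 TPM (mean 1519 ± 54 TPM). It ranked 68 among expressed protein-coding genes. Its paralog H2afv (ENSMUSG00000041126.16, chromosome 11, 6427229 to 6444443, minus strand) had 281, 330 and 335 TPM, a mean of 315 ± 30 TPM and rank 442. H2afz exceeded H2afv in 3 of 3 libraries, and no value of one gene reached those of the other. The log2 ratio was 2.38, 2.22 and 2.22 (mean 2.27 ± 0.09), or 4.83-fold, with p = 0.25 in the exact sign-flip permutation test. The kallisto-style tables put it at 2.09 ± 0.08, or 4.26-fold.

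H2afx (ENSMUSG00000049932.3, chromosome 9, 44334694 to 44336077, plus strand), a gene of 1 exon, had 349, 323 and 310 TPM (mean 327 ± 20 TPM, rank 423). Its 3 values overlapped those of H3f3a and H2afv. H2afy (ENSMUSG00000015937.15, chromosome 13, 56073619 to 56136361, minus strand) had 145, 150 and 159 TPM, a mean of 151 ± 7 TPM. H2afy2, the gene of macroH2A2 (ENSMUSG00000020086.6, chromosome 10, 61738665 to 61784147, minus strand), had 34.5, 34.8 and 30.6 TPM, a mean of 33.3 ± 2.4 TPM. Both macroH2A proteins have 372 residues in the annotation and shared 68.2% of aligned residues. H2afy lay above H2afy2 in 3 of 3 libraries, with a log2 ratio of 2.18 ± 0.17, or 4.55-fold, and p = 0.25 in the exact sign-flip permutation test.

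The linker histone genes were low among the members. H1f0 (ENSMUSG00000096210.2, chromosome 15, 79028450 to 79030504, plus strand), the gene of H1.0, a linker histone known from differentiated and resting cells, had 45.6, 47.5 and 45.2 TPM (mean 46.1 ± 1.2 TPM). H1fx (ENSMUSG00000044927.6, chromosome 6, 87980421 to 87981637, minus strand), the gene of H1.X, had 44.5, 34.2 and 29.2 TPM (mean 36.0 ± 7.8 TPM). In RSEM-style TPM H1f0 was the steadiest member and H1fx the least steady, with coefficients of variation of 2.61% and 21.7%. Among the 7584 genes of at least 20 CPM (counts scaled to library size) the median coefficient of variation was 5.95% and the 90th percentile 14.1%. In kallisto-style TPM H2afz was the steadiest member (0.67%), H1f0 had 4.62%, and H1fx was again the least steady (23.7%). The log2 ratio of H1fx to H1f0 was -0.03, -0.47 and -0.63 (mean -0.38 ± 0.31, p = 0.25 in the exact sign-flip permutation test). In the kallisto-style tables it was 0.02, -0.30 and -0.52, so the order of these genes differed between libraries there and they were not separated beyond their spread.

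In the order of mean levels, H2afz, H3f3b, H3f3a, H2afx, H2afv, H2afy, H1f0, H1fx and H2afy2, the neighbours from H3f3a to H2afv and the pair H1fx and H2afy2 overlapped between libraries. In the kallisto-style tables H2afv (272 ± 13 TPM) lay above H3f3a (256 ± 16 TPM) and H2afx (239 ± 21 TPM), and these ranges overlapped too. H2afz against H3f3b (1.51-fold), H2afv against H2afy (2.08-fold) and H2afy against H1f0 (3.28-fold) did not overlap in either set of tables. H1f0 and H1fx did not overlap in the RSEM-style tables, by a margin of 45.2 against 44.5 TPM, and overlapped in the kallisto-style ones.

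The transcripts behind these genes were examined in both transcript tables. H2afx, H2afy2, H1f0 and H1fx have 1 annotated transcript each. For H2afz, H2afz-201 took 97.3 ± 0.4% of the gene's TPM. For H3f3b, the coding transcript H3f3b-201 took 73.5 ± 1.7%, and the processed transcript H3f3b-204, for which no coding sequence is annotated, took 22.7 ± 1.3%. H3f3b-204 rested on 10.1% of the gene's estimated counts, at an effective length of 669 bases against 1788 bases for H3f3b-201. Both shares of H3f3b moved by less than 2 percentage points in the kallisto-style tables (75.3 ± 0.3% and 22.1 ± 0.5%).

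**Figure D2:**
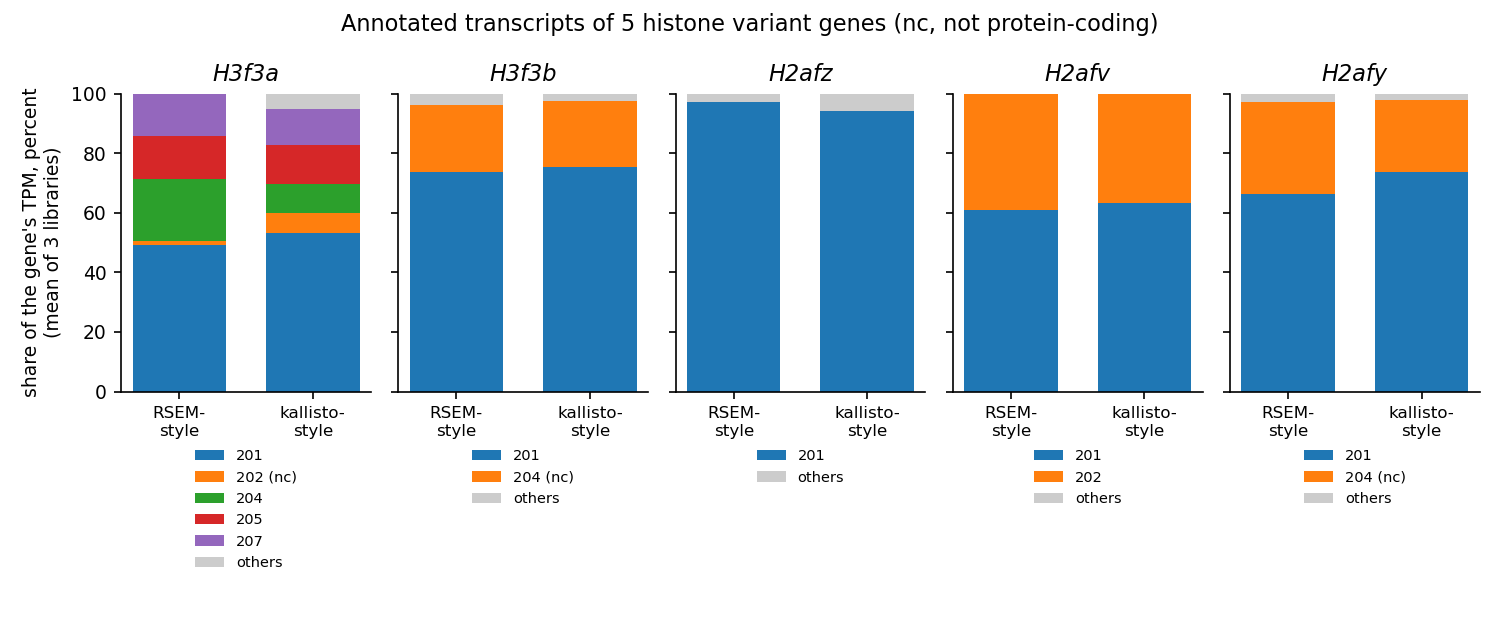
Share of each gene's TPM, in percent, that annotated transcripts took in the RSEM-style and kallisto-style tables, as the mean of 3 libraries, for the 5 genes with more than 1 transcript. Transcripts of at least 5% in either table are coloured, and the rest are grey. H3f3a is split over the most transcripts, and H3f3a-204 shrinks from 20.8% to 9.6% between the tables.

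H3f3a was spread over more transcripts than the other members. H3f3a-201 took 49.1 ± 3.4% of its TPM, H3f3a-204 20.8 ± 5.6%, H3f3a-207 14.3 ± 2.5% and H3f3a-205 14.2 ± 0.1%. By reads the order was another: H3f3a-205, the longest at 2841 bases, held 44.0% of the gene's estimated counts and H3f3a-201, of 888 bases, 39.3%. H3f3a-201 lacks 3 coding bases at an exon junction that H3f3a-205 has, in capitals below, and its annotated protein has 135 residues in place of 136.
H3f3a-205 junction: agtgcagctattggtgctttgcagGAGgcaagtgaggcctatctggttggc
H3f3a-201 junction: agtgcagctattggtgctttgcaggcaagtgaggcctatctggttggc
Apart from those 3 bases the coding sequences of H3f3a-201 and H3f3a-205 were the same. Outside them the transcripts also differ, with 380 and 2245 bases after the stop codon. Reads over the junction were not examined, so the TPM share of H3f3a-201 does not measure how often the 3 bases are absent. The short transcript H3f3a-204 had 83.8, 46.2 and 79.9 TPM in the RSEM-style and 37.4, 7.61 and 30.3 TPM in the kallisto-style tables, lowest in replicate 2 in both.

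H2afv has 2 coding transcripts. H2afv-201, of 519 bases and 90 codons, had 168, 197 and 213 TPM, and H2afv-202, of 1633 bases and the full 128 codons, had 113, 133 and 122 TPM. The shorter form thus took 61.0 ± 2.1% of the gene's TPM and lay above the longer in 3 of 3 libraries. It rested on 25.7% of the gene's estimated counts, at an effective length of 315 bases against 1428 bases, so the order of the forms depends on the length correction. The kallisto-style tables gave H2afv-201 a share of 63.4 ± 1.2% on 30.3% of the counts.

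H2afy was made up mostly of the macroH2A1.2 transcript. H2afy-201 had 96.0, 105.8 and 98.8 TPM, a share of 66.3 ± 4.2%. H2afy-202, the macroH2A1.1 transcript, had 0.49 TPM on 6.46 estimated counts in replicate 1 and was listed at 0 in replicates 2 and 3. A count of 0 allows up to 3 counts there, or 0.238 and 0.230 TPM, for counting error only. The kallisto-style tables gave H2afy-202 0.415, 0 and 0.799 TPM, against 93.6 to 97.5 TPM for H2afy-201. Both tables thus put macroH2A1.1 RNA at under 1 TPM in every library. H2afy-204, a processed transcript of 889 bases and 6 exons that ends before both alternative exons, took 30.9 ± 2.6% of the gene's TPM in the RSEM-style and 23.9 ± 2.1% in the kallisto-style tables. These shares rested on 14.6% and 11.1% of the gene's estimated counts and depend on the length correction.

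Both quantifications read the same libraries, so they were compared within each library with limma on log2(TPM + 1), which understates the change of low transcripts. Of the 9 genes, 0 passed both the adjusted p of 0.05 and a minimum mean difference of 1, against 13.1% of 14795 genes tested (limma, Benjamini-Hochberg). Without the minimum difference all 9 passed, against 77.6% of genes. Each was then lower in the kallisto-style tables, by log2 differences from -0.19 (H1fx) to -0.45 (H2afx), while the median of all genes was -0.25.

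Of 25 member transcripts tested, 5 passed both limits, against 18.9% of 28903 transcripts, and 18 passed without the minimum difference, against 61.6%. H3f3b-202 had 10.6 ± 1.1 TPM in the RSEM-style and 0.37 ± 0.24 TPM in the kallisto-style tables, a log2(TPM + 1) difference of -3.09 ± 0.17 (SE, limma adjusted p = 0.0019). H3f3a-203 (0.40 ± 0.69 against 12.1 ± 4.9 TPM), H3f3a-202 (5.00 ± 0.94 against 17.2 ± 1.0 TPM) and H2afz-206 (2.07 ± 1.80 against 15.8 ± 6.6 TPM) were higher in the kallisto-style tables. H3f3a-204 was lower there, at 25.1 ± 15.6 against 70.0 ± 20.7 TPM. H3f3b-202, H3f3a-202 and H3f3a-203 were called in all 5 alternative settings that kept the minimum difference. H3f3a-204 was called in 2 of these 5 (not with no filter, nor without replicate 1 or 3), and H2afz-206 in 3 of 5 (not with a pseudocount of 0.1, nor without replicate 2). Of the 5 transcripts 3 belong to H3f3a, and the main transcript of each gene was not among them. H3f3a-202 is a retained intron transcript, and the other transcripts named are annotated as coding.

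The near-copies of the members were taken as annotated pseudogenes with at least 90% identity over at least 80% of their length. H3f3a had 38, H2afz 4, H3f3b 3 and H2afy2 1 (H2afy3), and none was found for the other 5 genes. Such copies compete with the gene for reads. The 38 copies of H3f3a together held 6.6 ± 3.1 TPM in the RSEM-style and 12.2 ± 0.7 TPM in the kallisto-style tables, or 1.92% and 4.56% of the gene and copies combined. Of these, 34 were listed at 0 in all RSEM-style tables and 17 in all kallisto-style ones.

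Gm8203 (ENSMUSG00000101878.1, chromosome 6, 116173737 to 116174123, plus strand) was the copy given most signal. It had 26.9, 31.5 and 41.4 TPM in the RSEM-style tables on 38.8, 43.1 and 58.6 estimated counts, and was listed at 0 in all 3 kallisto-style tables. As its sequence is identical to that of H2afz over 387 bases, no read inside it can be assigned to one or the other by sequence. Adding all copies to H2afz raised it by little, since they made up 2.13 ± 0.40% of the sum.

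The other copies with a mean of at least 1 TPM were small and differed between the tables. H3f3a-ps2 (3.84 ± 1.12 TPM), H3f3c (5.67, 0 and 1.27 TPM) and Gm6485, a copy of H3f3b (2.17 ± 1.89 TPM), had signal in the RSEM-style tables. Gm20545 (5.97 ± 1.22 TPM), Gm6421 (2.78 ± 0.55 TPM) and Gm6108, a copy of H2afz (1.25 ± 0.62 TPM), had signal in the kallisto-style tables and were listed at 0 in the RSEM-style ones. Gm37486, a copy of H3f3b, reached 1 TPM on average in both. These values are uncertain, as reads shared with the parent gene can be split either way.

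**Figure D3:**
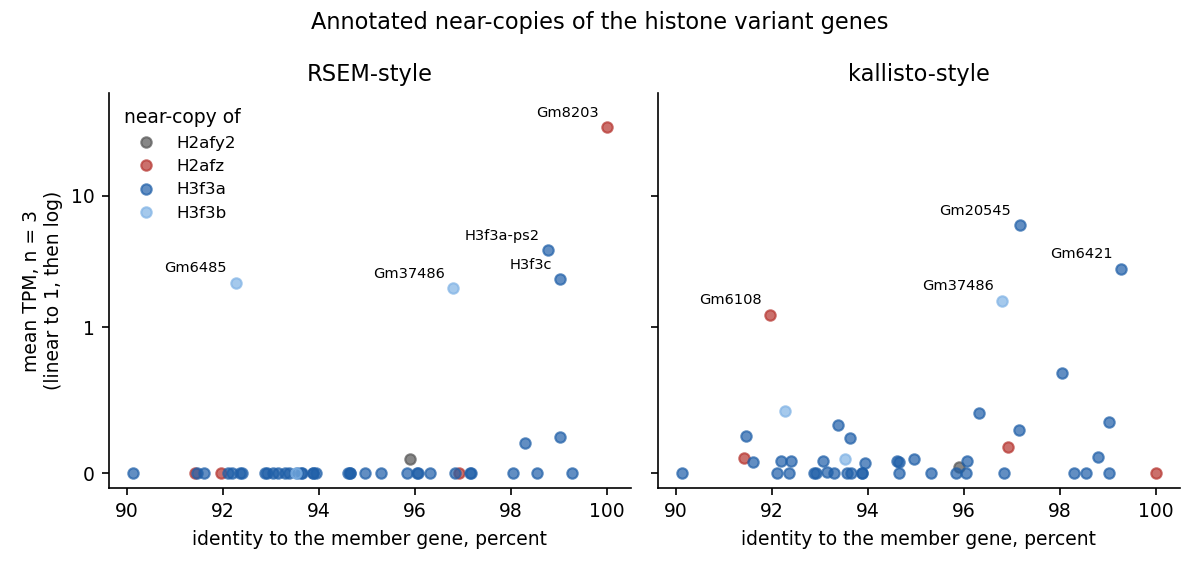
Mean TPM of 3 libraries (linear up to 1, log above) against percent identity for the 46 near-copies, coloured by the gene they resemble, in the RSEM-style and kallisto-style tables. Gm8203, identical to H2afz over its length, lies at 33.3 TPM on the left and at 0 on the right.

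Genes on the opposite strand overlap 6 of the members, all but H3f3b, H2afz and H2afv. Gm17275, a long noncoding RNA gene, overlaps H3f3a over 6916 bases of gene body and had 62.9 ± 1.7 TPM. Gm5577, annotated antisense to H1fx over 755 bases, had 16.7 ± 0.6 TPM, and Aifm2 overlaps H2afy2 over 596 bases with 21.4 ± 1.7 TPM. No source used here gives the strand setting of the quantification, and without strand the reads of such pairs cannot be told apart. Gm44335, an annotated microRNA gene across from H2afx, was listed at 250 ± 19 TPM, but on 37 counts in all 3 libraries at an effective length of 6.59 bases.

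The share of the variants in each histone class was taken over protein-coding genes. The H3 total held H3f3a, H3f3b and the replication-dependent H3 genes, and left out Cenpa, whose product replaces H3 at centromeres. H3f3a and H3f3b made up 99.0, 98.4 and 98.6% of that total, a mean of 98.7 ± 0.3%. With Cenpa (213 ± 10 TPM) in the total their share was 84.1, 85.3 and 86.3%, a mean of 85.2 ± 1.1%. The 12 replication-dependent H3 genes together had 18.3 ± 5.1 TPM, the highest being Hist2h3b at 6.27 ± 2.15 TPM. The 5 variant genes of H2A made up 90.6, 87.8 and 86.9% of H2A TPM, a mean of 88.4 ± 1.9%. On the other side stood 18 replication-dependent genes with 189 ± 61 TPM and H2afj with 120 ± 7 TPM. H2afj is on the list of other variant genes below, and counting it on that side lowers the variant share. In the kallisto-style tables it had 54.2 ± 2.0 TPM. The share without H2afj was not calculated. H1f0 and H1fx made up 96.0 ± 0.6% of linker histone TPM, the 6 Hist1h1 genes having 3.44 ± 0.63 TPM in sum. Taken by symbol, these include Hist1h1t (0.06 ± 0.10 TPM), which is also on the list of other variant genes below.

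**Figure D4:**
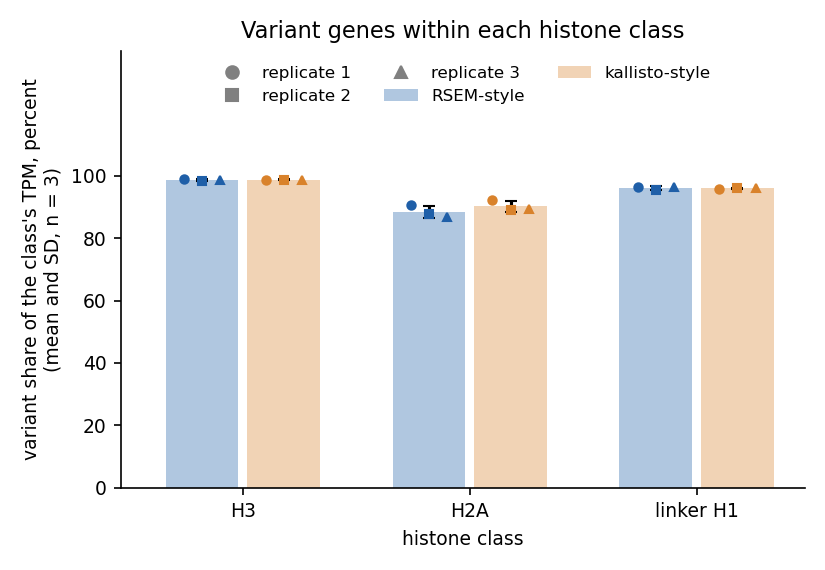
Share, in percent, of the TPM of each histone class that the variant genes took, with bars for the mean, error bars for the SD of 3 libraries and symbols for the replicates, in both sets of tables. The H3 total leaves out Cenpa, and with it the H3 share is 85.2% in the RSEM-style tables. As drawn, the RSEM-style means are 98.7% for H3, 88.4% for H2A and 96.0% for H1.

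The kallisto-style tables gave shares of 98.7 ± 0.1% for H3 (85.6 ± 1.3% with Cenpa in the total), 90.2 ± 1.8% for H2A and 95.9 ± 0.2% for H1. These are shares of measured RNA and not of protein. Whether RNA with a poly(A) tail was selected is not given in the sources used here, and replication-dependent mRNAs lack that tail. The part that such a selection would have in these shares was not tested.

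The spread of the members between replicates was tested in 2 ways. By the edgeR dispersion test, in which each gene's dispersion is set against the trend over all genes, 0 of 9 members were variable, against 0.0373% of 13391 genes. The smallest adjusted p was 0.75 (H3f3b). Before adjustment the edgeR p was under 0.05 for 3 members (H3f3b, H1fx and H2afv) and 610 genes. The 8 alternative fits, limma-voom and kallisto-style counts among them, also called 0 members. In simulated libraries of 13391 genes this test recovered 2% of genes changed 1.5-fold in 1 library and 70% of those changed 2-fold.

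By the chi-square test against counting noise alone, 5 of 9 members spread further than Poisson error (H3f3b, H2afz, H2afv, H2afy and H1fx), against 12.4% of 13391 genes. The test gains power with counts, and 19.6% of the 7584 genes of at least 20 CPM passed it, a floor that all 9 members cleared. Without replicate 1 the count was 0 of 9 members, against 0.2% of genes. It was 6 without replicate 2, against 10.8% of 13583 genes, and 4 without replicate 3, against 10.9% of 13549 genes.

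In CPM normalised by TMM, H3f3b had 983 in replicate 1 against 1230 and 1220 in replicates 2 and 3 (chi-square adjusted p = 2.9e-73). H2afz had 913 against 1014 and 1016 (adjusted p = 2.7e-14), H2afv 156 against 194 and 184 (adjusted p = 2.5e-08) and H2afy 153 against 173 and 169 (adjusted p = 0.015). These 4 genes were lowest in replicate 1 in this scaling. H1fx went the other way, at 32.9 in replicate 1 against 26.6 and 22.5 (adjusted p = 0.00069). Without replicate 1 the adjusted p of these 5 genes was 0.74 or more. In kallisto-style TPM H3f3b and H2afv were again lowest in replicate 1. H2afz was highest there (1165 against 1152 and 1152 TPM) and H2afy in between (130 against 128 and 132 TPM). Both the scaling and the quantification differ between these values and the CPM above. On kallisto-style counts with TMM scaling the chi-square test called the same 5 members, against 17.6% of 15934 genes. The adjusted p was 1.1e-21 for H2afz and 6.6e-05 for H2afy. Spike-in in place of TMM scaling raised the unadjusted edgeR p of the 4 lower genes. It went from 0.0052 to 0.55 (H3f3b), 0.16 to 0.96 (H2afz), 0.023 to 0.70 (H2afv) and 0.21 to 0.94 (H2afy). For H1fx it was 0.018 and then 0.020. The unadjusted edgeR p fell for H3f3a (0.97 to 0.49), H2afx (0.45 to 0.16) and H2afy2 (0.34 to 0.32). It rose for H1f0 (0.55 to 0.73). The chi-square test was not run with spike-in scaling.

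Of the 6 ES cell markers, 4 were highest in replicate 1 (Pou5f1, Sox2, Esrrb and Klf4). The summed level of all 6 was 2128 TPM there against 1844 and 1875 TPM in replicates 2 and 3, and Pou5f1, the gene of Oct4, had 610.5 TPM against 431 and 442 TPM. By the chi-square test 5 of 6 ES markers spread beyond counting noise, and 0 of 6 did without replicate 1. The fibroblast markers summed to 2.59, 2.59 and 1.84 TPM and the differentiated-cell markers to 9.82, 8.47 and 7.94 TPM. The part of these values in the shifts of the members was not tested.

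H3f3a had 212, 215 and 215 CPM and a chi-square of 0.277, a spread within counting noise. The ratio of replicate 1 to the mean of the others was 0.803 for H3f3b and 0.986 for H3f3a, and the difference between these ratios was not tested. Nor did H2afx, H2afy2 and H1f0 pass (adjusted p = 0.067, 0.33 and 0.55).

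**Figure D5:**
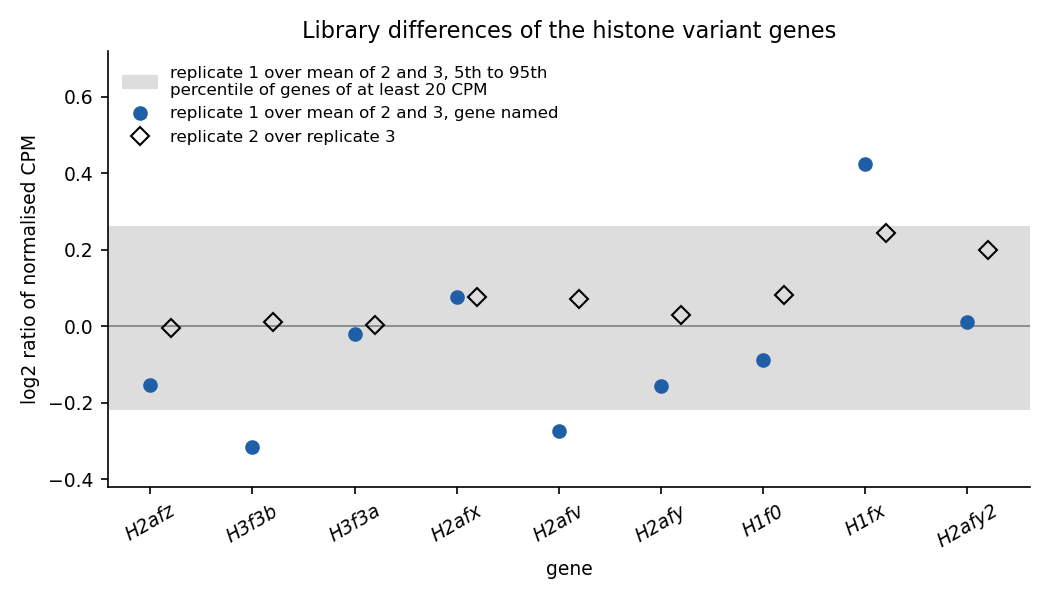
Log2 ratio of normalised CPM of replicate 1 to the mean of replicates 2 and 3 (blue circles) and of replicate 2 to replicate 3 (open diamonds) for the 9 genes. The grey band is the 5th to 95th percentile of the first ratio, -0.22 to 0.26, over 7584 genes of at least 20 CPM. H3f3b (-0.32) and H2afv (-0.27) lie below it and H1fx (0.42) above it. The same percentiles of the second ratio, not drawn, were -0.15 and 0.17, and H1fx (0.24) and H2afy2 (0.20) lie above them.

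The factors that handle these histones were present in fixed lists. All 7 genes of H3.3 deposition, the HIRA complex, Asf1a, and Atrx with Daxx, were expressed, from Daxx at 88.8 ± 6.2 TPM to Ubn2 at 5.18 ± 0.38 TPM, a median of 20.9 TPM. The replication-coupled list for H3 had 6 of 6 expressed and a median of 109 TPM, from the helicase subunit Mcm2 (380 ± 8 TPM) to the CAF-1 subunit Chaf1a (34.2 ± 2.8 TPM). All 12 genes of H2A.Z exchange were expressed, from the ATPase gene Ruvbl2 (254 ± 8 TPM) to Ino80 (5.66 ± 1.09 TPM). The medians describe these lists and were not compared by a test.

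Of the H2A.X signalling list, 10 of 10 were expressed, from the phosphatase gene Ppp4c (307 ± 10 TPM) to the ubiquitin ligase gene Rnf168 (2.34 ± 0.21 TPM). Of 9 general histone chaperones 9 were expressed, and the highest, Npm1 (2090 ± 13 TPM), lay above all 9 variant genes, the lowest being Supt6 at 34.7 ± 4.3 TPM. By the edgeR dispersion test 0 of the 44 genes of these 5 lists were variable between replicates, against 0.0373% of genes. By the chi-square test 12 of 44 (27.3%) spread beyond counting noise, against 12.4% of all genes and 19.6% of those of at least 20 CPM, and 0 of 44 did without replicate 1. Among 12 other variant genes 2 were expressed: H2afj and Cenpa, both given above. The remaining 10, mostly germline variants, were not expressed by that definition. The lowest, Hist1h2ba, was listed at 0 in the RSEM-style tables, as were 6 others.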

How the data were processed

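Each of the 3 libraries had a gene table and 2 transcript tables, quantified on mm10 and GENCODE M21, per the file headers and accompanying notes. The gene and first transcript tables have RSEM columns and were made from transcriptome alignments, and the second has kallisto columns and was made from read files. The quantifier, aligner, versions and strandedness were not given in the sources used here. Estimated counts (expected counts) were deposited without normalization, and the deposited TPM values were scaled per library over all features by the authors. FPKM and posterior columns were not used. Reads of a Cast and 129 hybrid were quantified on the mm10 reference, whose effect was not tested.

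Counts were rounded for edgeR 4.0.16 (filterByExpr, TMM, intercept-only quasi-likelihood fit, an F test of each dispersion against the trended prior) and for a chi-square test with 2 degrees of freedom. TPM differences between the tables were tested with limma 3.58.1 on log2(TPM + 1), for features of at least 1 TPM in either table in all libraries. The edgeR, chi-square and limma p-values were Benjamini-Hochberg adjusted over the whole table at 0.05, except where given before adjustment. Ratios were tested by an exact two-sided sign-flip permutation over libraries, without adjustment. DESeq2 1.42.0 size factors and limma-voom were alternatives. R 4.3.3, Python 3.11.15, pandas 2.3.3, scipy 1.17.1 and blastn 2.17.0 were used. In simulated data the limma step recovered 100% of 4-fold changes among 13135 genes, with 0 false calls. The simulated libraries held none that stood apart, unlike the real replicate 1.

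A count of 0 allows up to 3 counts, 0.288, 0.313 and 0.301 CPM in replicates 1, 2 and 3, for counting error only. The genes named are the 9 members, their transcripts of at least 5% of the gene's TPM in either table, near-copies of at least 1 TPM, and the highest and lowest gene of each list. H2afy-202, H3f3b-202, H3f3a-203, H2afz-206, the overlapping genes, H2afj, Hist2h3b, Hist1h1t, Col3a1, Pou5f1, Sox2, Klf4 and H2afy3 were named after their values were seen, as was the identity rule for near-copies chosen. The H3 share with Cenpa in the total was an alternative chosen after seeing the data. Members and lists were chosen with earlier results of these data known.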

Additional observations from a re-analysis of the deposited data

How the results depend on the processing

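The sum of the 9 members was 3010 TPM in the kallisto-style tables against 3769 TPM. The count of members beyond counting noise was 5, against 12.4% of genes. With 1 library left out it ranged from 0 (without replicate 1) to 6, against 0.2 to 10.9% of genes. Without a minimum difference, 9 member genes and 18 member transcripts differed between the quantifications, in place of 0 and 5. The shares over all genes and transcripts were then 77.6% and 61.6%. Leaving out 1 library gave 4 to 5 of 25 or 26 member transcripts, against 16.3 to 17.3% of all transcripts tested. A pseudocount of 0.1 gave 4 of 25, against 19.5%, and no filter 4 of 32, against 5.46% of 88635 transcripts. The transcripts called were not the same ones. H3f3a-204 and H2afz-206 lost their calls in some settings (largest limma adjusted p = 0.070 and 0.069). H2afz-205 was called without replicate 1 and H3f3a-206 without replicate 2. The signs of the 4 mean log2 ratios held with kallisto-style TPM, with near-copies added and without each library. Under these the class shares moved by less than 1 SD. For H1fx to H1f0 with kallisto-style TPM only the mean kept its sign, as 1 of 3 libraries lay above 0. With Cenpa in the H3 total, an alternative chosen after seeing the data, the H3 share was 85.2% in place of 98.7%. H2afx passed the chi-square test without replicate 2 (adjusted p = 0.029), and H1fx did not without replicate 3 (adjusted p = 0.074). The genes variable between replicates numbered 5, and 2 with spike-in scaling, 6 with DESeq2 size factors, 8 with limma-voom, 16 with kallisto-style counts, 34 with no filter and 7 to 14 without 1 library, with 0 members in each. No paired analysis was possible because there is 1 group. With 3 libraries the exact sign-flip permutation test of a ratio cannot fall below p = 0.25, and small members such as H1fx (223 to 345 counts) limit the precision.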
